A study of Mus musculus with 4 samples.

Results

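The epithelial sodium channel (ENaC) and a set of aldosterone-induced genes were examined in glomerular RNA. They comprised the 3 channel subunit genes Scnn1a, Scnn1b and Scnn1g, the corticosteroid-induced genes Sgk1, Tsc22d3, Fkbp5, Per1 and Zbtb16, and the channel's ubiquitin ligase Nedd4l. The members were chosen by symbol, as the 21 probe sets annotated with exactly 1 of these 9 gene symbols, out of 45101 probe sets and 18193 genes on the array. The brightest probe set of each gene served as its main value, and all 9 fell among the 9097 genes in the brighter 50% (mean log2 value of 8.04 or more), called counted genes here.

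RNA came from glomeruli of male mice that had all lost 1 kidney by surgery. Wild-type mice (WT) and mice lacking guanylyl cyclase A in the whole body (GC-A KO, here KO), the natriuretic peptide receptor encoded by Npr1, each received 1 of 2 treatments. Controls (WT control, KO control) were given 2% ethanol subcutaneously on normal chow, and the others (WT ALDO, KO ALDO) aldosterone subcutaneously with 6% salt in the diet for 3 weeks. ALDO therefore stands for hormone and salt diet together, and their parts in an ALDO difference cannot be told apart. There was 1 Affymetrix array for each of the 4 groups, and strain, age and the number of mice behind an array are not stated. No difference therefore has a replicate error or a test. Values are probe set intensities on a linear scale, and differences are between log2(intensity + 16) of 2 arrays, a scale that understates changes of dim genes.

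Aldosterone binds the mineralocorticoid receptor in principal cells of the collecting duct and connecting tubule, where it raises sodium uptake through ENaC. The kinase Sgk1 is induced early and phosphorylates the ubiquitin ligase Nedd4-2 (Nedd4l), which would otherwise remove the channel from the membrane. Tsc22d3, Fkbp5, Per1 and Zbtb16 are widely used readouts of corticosteroid receptor activity in many cell types, while ENaC belongs to the distal nephron rather than to the glomerular tuft.

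The arrays had a common trimmed mean intensity of 500.003 and medians of 89.5 to 103. All 7 podocyte markers with a probe set were counted genes, as were all 10 proximal tubule markers and all 7 thick ascending limb markers, so the RNA held tubular transcripts. Their signal was well above that of the podocyte markers. Summed intensities over the arrays were 174813 to 210032 for proximal tubule and 63389 to 74471 for thick ascending limb markers. Podocyte markers summed to 21553 to 26607. Such sums do not give shares of cells. None of the 8 measured T and B lymphocyte markers was a counted gene. The probe set of the deleted gene Npr1 had intensities of 92.6 in WT and 108 in KO under control treatment, and 60.5 in WT and 23.4 in KO under ALDO, all below the counted range. Where it lies relative to the deletion is not stated, so it does not check the genotype labels.

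The 3 ENaC subunit genes were all lowest in WT control and higher in KO than in WT under both treatments. Of counted genes, 28.6% were lowest in WT control and 34.8% were higher in KO under both treatments. Scnn1g, the gamma subunit that carries a protease-cleaved inhibitory stretch, had intensities of 871 in WT and 2040 in KO under control treatment, and 1235 in WT and 2599 in KO under ALDO. Both KO arrays lay above both WT arrays. The KO value was 2.32 times the WT value under control treatment (log2 difference 1.21) and 2.09 times under ALDO (1.06). Scnn1g ranked 45 from the highest of the 9097 counted genes in the first of these comparisons and 93 in the second. It was the only member at 2-fold or more under both treatments, a pattern held by 49 counted genes (0.539%). Each ENaC subunit gene, like Sgk1 and Per1, had only 1 probe set, so no second probe set stands beside its values.

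Scnn1b, the beta subunit that assembles with the other two, had 340 in WT and 803 in KO under control treatment, and 520 in WT and 715 in KO under ALDO. Again both KO arrays were above both WT arrays, but the gap was 2.30-fold under control treatment (1.20) and 1.36-fold under ALDO (0.45). Scnn1a, the pore-forming alpha subunit whose gene is a classical aldosterone target in the collecting duct, had 534 in WT and 768 in KO under control treatment, and 549 in WT and 1196 in KO under ALDO. Here the wider gap was under ALDO, at 2.14-fold (1.10), against 1.43-fold under control treatment (0.51). The subunits thus differed in which treatment showed the larger genotype difference, and that contrast rests on 4 arrays and was not tested.

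**Figure D1:**
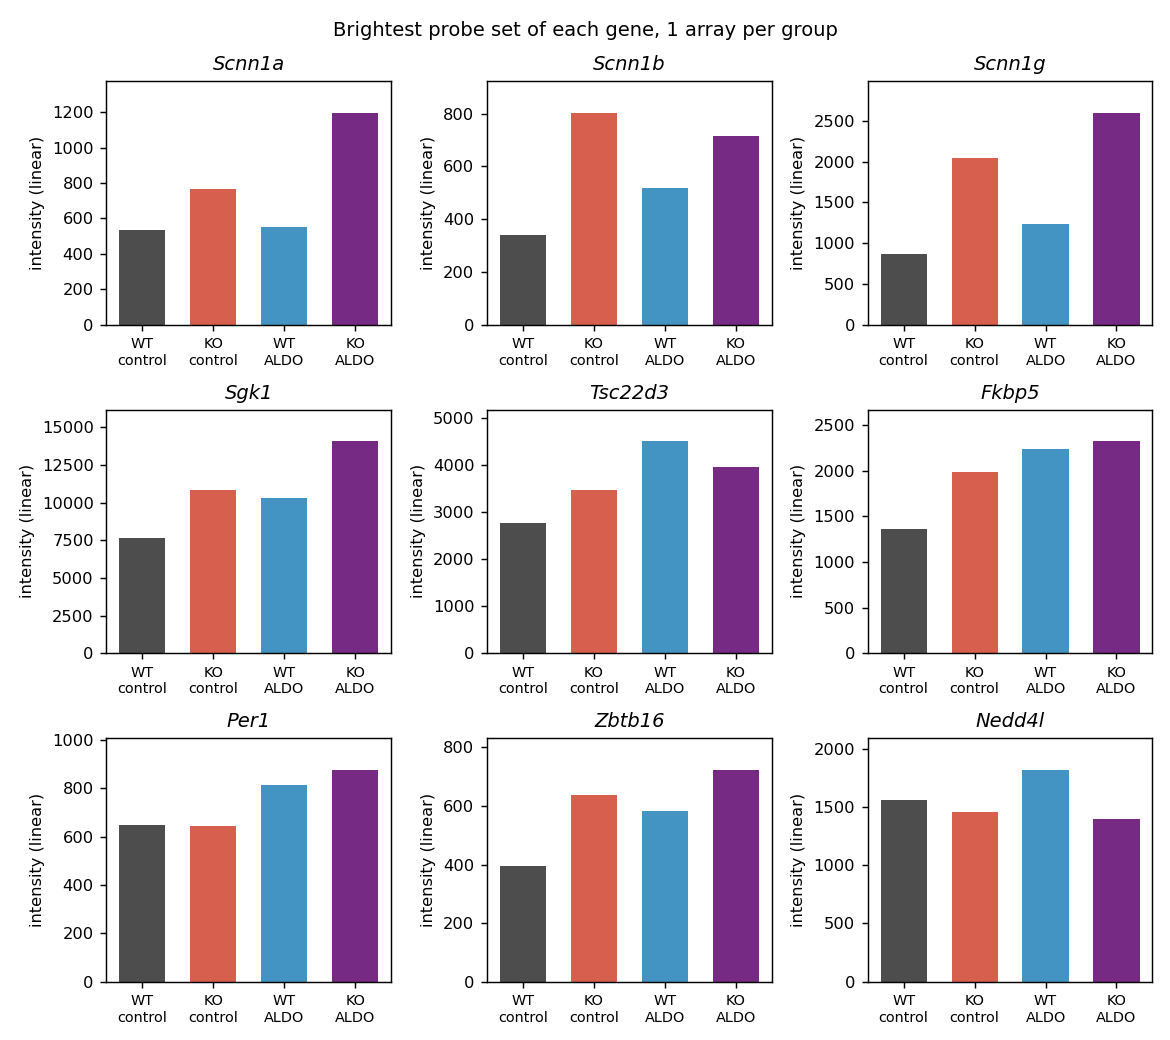
Intensity on a linear scale (vertical axis, from 0) of the brightest probe set of each of the 9 genes, with 1 bar for each array (WT and KO, control and ALDO) and no error bars because each group had 1 array. WT control is the lowest bar for 7 of the 9 genes, and Scnn1g runs from 871 in WT control to 2599 in KO ALDO.

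Scnn1g and Scnn1b lie next to each other with no other protein-coding gene between them in the RefSeq order for GRCm38.p6, and their promoters are shown because the genes were both over 2-fold higher in KO control. The flanking genes were at -0.09 (Usp31, on the Scnn1g side) and -0.30 (Cog7, on the Scnn1b side) in that comparison. Under ALDO both were higher in KO, Usp31 by 0.59 and Cog7 by 0.29, where Scnn1g had 1.06 and Scnn1b 0.45. The 250 bases before each annotated start (RefSeq, GRCm38.p6) are given 5′ to 3′, with capitals marking the GC box GGGCGG on either strand, the letters recognised by Sp1-type factors.
Scnn1g, chr7:121734229-121734478, plus strand: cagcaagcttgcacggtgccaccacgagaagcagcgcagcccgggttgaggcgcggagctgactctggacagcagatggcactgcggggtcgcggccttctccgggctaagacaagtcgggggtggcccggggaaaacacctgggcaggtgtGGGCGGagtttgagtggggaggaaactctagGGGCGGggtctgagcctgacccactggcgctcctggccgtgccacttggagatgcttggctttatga
Scnn1b, chr7:121864788-121865037, plus strand: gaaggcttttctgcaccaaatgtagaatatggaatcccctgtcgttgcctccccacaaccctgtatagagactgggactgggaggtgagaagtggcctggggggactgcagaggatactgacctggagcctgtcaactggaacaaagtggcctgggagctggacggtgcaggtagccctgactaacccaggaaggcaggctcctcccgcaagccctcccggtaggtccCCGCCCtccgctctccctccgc
Scnn1g held 2 such matches and Scnn1b held 1, and 32.7% of all 32851 promoter windows of this length hold at least 1. Neither window held the corticosteroid receptor half-site TGTTCT on either strand, which 16.1% of windows hold.

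The genotype comparison under control treatment covered the other members as well. Of the 9 genes, 7 were higher in KO control than in WT control, against 49.7% of counted genes. In this comparison 2, Scnn1b and Scnn1g, were higher by 2-fold or more, against 0.967% of counted genes. The member median was 0.51 and the median of all counted genes was -0.00199. Under ALDO, 7 of 9 were higher in KO, against 51.3% of counted genes, and 2, Scnn1a and Scnn1g, were at 2-fold or more, against 1.26%. The member median under ALDO was 0.30 and the median over counted genes 0.00868. The members were picked with results of these arrays known, so their counts are a description. The median under ALDO was 0.16 with arrays centred on their medians, 0.45 with the next-brightest probe set or the mean of all probe sets, and 0.05 over the 5 members in the brightest 25%. Other cell types also differed between genotypes. Endothelial markers were higher in KO for 10 of 10 genes under both treatments (medians 0.37 and 0.43), macrophage and monocyte markers for 7 of 7 counted genes (1.13 and 1.23), and proximal tubule markers were lower for 9 and 8 of 10 (-0.21 and -0.32). Of counted genes, 34.8% were higher in KO under both treatments. C1qb (145) and C1qa (243) were under the counted range in WT control, so their differences are set against dim values. Of macrophage markers not counted, Adgre1, Cd68 and C1qc were higher in KO under both treatments, and Itgam was lower under ALDO (-0.35). The ratio of the 3′ to the 5′ probe set of beta-actin, a sign of RNA quality, was 1.86 and 1.87 on the WT arrays and 1.67 and 1.61 on the KO arrays. The part of these in the members' values was not tested.

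**Figure D2:**
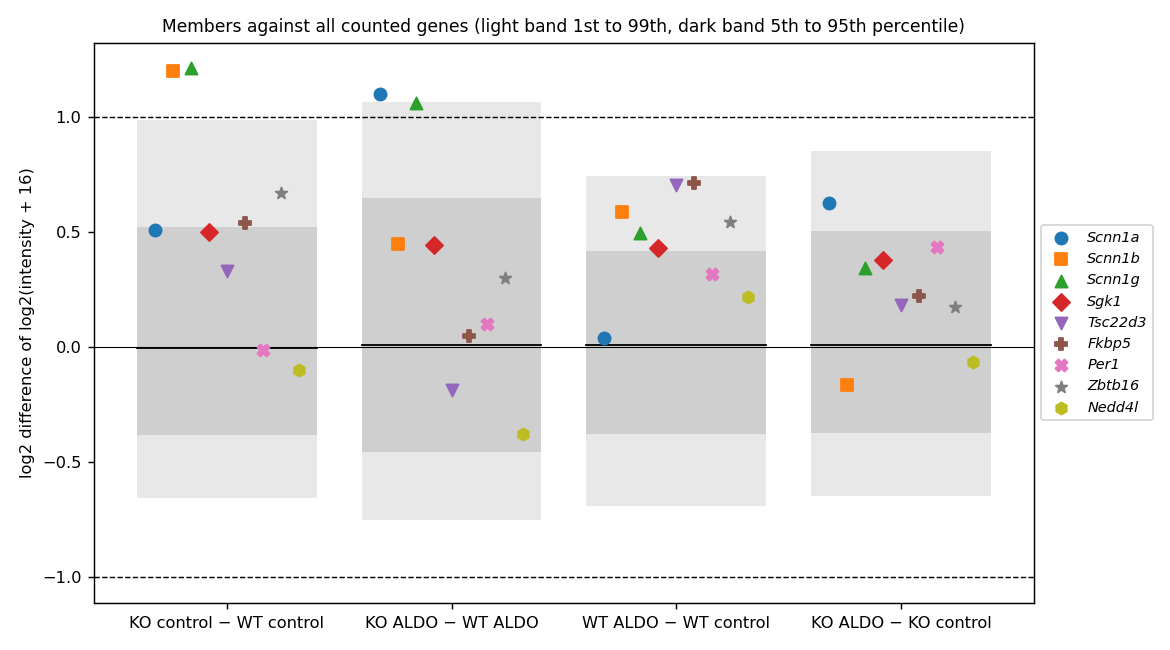
Log2 differences of log2(intensity + 16) (vertical axis) for the 9 members (coloured symbols) in 4 pairs of arrays (horizontal axis), over bands from the 1st to the 99th (light) and the 5th to the 95th (dark) percentile of the 9097 counted genes. Dashed lines mark 2-fold. Scnn1b (1.20) and Scnn1g (1.21) lie above the light band in KO control against WT control, and no member reaches 2-fold in either comparison of ALDO with control.

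Sgk1, the serum- and glucocorticoid-regulated kinase, was bright on every array, with 7647 in WT and 10820 in KO under control treatment, and 10325 in WT and 14065 in KO under ALDO. WT control was lowest, KO ALDO highest, and the arrays with either the knockout or aldosterone and salt lay close together. The differences were of one size: 0.50 and 0.45 between genotypes (control, ALDO) and 0.43 and 0.38 between treatments (WT, KO). The ALDO effects in the 2 genotypes differed by -0.05. Sgk1 is expressed in many cell types, glomerular cells included.

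One of the 6 annotated starts of Sgk1 has the full palindromic corticosteroid response element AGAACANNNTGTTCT in the 250 bases before it, and that window is shown with the match in capitals, its first base 189 bases before the start (RefSeq, GRCm38.p6, 5′ to 3′).
Sgk1, chr10:21993640-21993889, plus strand: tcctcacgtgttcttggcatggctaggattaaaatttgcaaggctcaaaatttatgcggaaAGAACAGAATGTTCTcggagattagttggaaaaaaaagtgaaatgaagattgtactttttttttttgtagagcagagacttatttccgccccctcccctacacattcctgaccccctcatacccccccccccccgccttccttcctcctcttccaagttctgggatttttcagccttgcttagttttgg
The full element occurs in 3 of 32851 windows (0.00913%) and in 1 of the 14 windows of the 6 members with an entry (Scnn1b, Scnn1g, Sgk1, Tsc22d3, Fkbp5, Per1). The looser core ACANNNTGT, which lies inside it, is in 2 member windows, both of Sgk1, and in 5.84% of all windows. The half-site TGTTCT, also part of the full element, is in 4 of the 14, of Sgk1 and Tsc22d3. A match is a run of letters and not a measured binding site.

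Tsc22d3, which encodes the leucine zipper protein GILZ that stabilises ENaC at the membrane and mediates anti-inflammatory glucocorticoid actions, had 2758 in WT and 3478 in KO under control treatment, and 4504 in WT and 3958 in KO under ALDO. Both ALDO arrays were above both control arrays. ALDO was 1.63 times control in WT (0.70) and 1.14 times in KO (0.19). In KO against WT the value was higher under control treatment (0.33) and lower under ALDO (-0.19). Its second probe set gave 1189 and 1348 (WT and KO) under control treatment and 1894 and 1653 under ALDO, with the same ranking of the 4 arrays. The third gave 0.82 for ALDO in WT and -0.35 in KO, opposite in sign to the main value in KO, and the fourth was dim, at 35.2 to 54.5.

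Fkbp5, the co-chaperone that lowers hormone affinity of the glucocorticoid receptor, had 1361 in WT and 1988 in KO under control treatment, and 2240 in WT and 2322 in KO under ALDO. WT control stood below the other 3 arrays. The ALDO difference was 0.71 in WT and 0.22 in KO, and the genotype difference 0.54 under control treatment and 0.05 under ALDO. The second Fkbp5 probe set, derived from the same source sequence, gave 344 and 351, then 465 and 441. It held the ALDO differences (0.42 in WT, 0.32 in KO) and had almost no genotype difference (0.03 under control treatment, -0.08 under ALDO), so the 0.54 in KO control rests on 1 probe set. The third was at 10.2 or less on all arrays.

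Zbtb16, a zinc finger repressor strongly induced by glucocorticoids in many tissues, had 395 in WT and 639 in KO under control treatment, and 584 in WT and 724 in KO under ALDO, with WT control lowest. The ALDO difference was 0.55 in WT and 0.18 in KO, and the genotype difference 0.67 and 0.30 (control, ALDO). The second probe set repeated the ranking of the arrays at 167 and 308, then 266 and 398, with 0.62 and 0.36 for ALDO and 0.82 and 0.56 for genotype. The third, at 57.0 to 118, went the other way under control treatment (-0.37) and for ALDO in WT (-0.37), below the counted range.

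Per1, a clock gene that aldosterone induces in collecting duct cells and that takes part in Scnn1a regulation, followed treatment rather than genotype. It had 650 in WT and 644 in KO under control treatment, and 815 in WT and 877 in KO under ALDO, both ALDO arrays above both control arrays. ALDO gave 0.32 in WT and 0.44 in KO, while genotype gave -0.01 and 0.10 (control, ALDO). One of its 2 annotated promoters holds the E-box CACGTG bound by the clock's activators, shown in capitals with its first base 166 bases before the start (RefSeq, GRCm38.p6, 5′ to 3′).
Per1, chr11:69098699-69098948, plus strand: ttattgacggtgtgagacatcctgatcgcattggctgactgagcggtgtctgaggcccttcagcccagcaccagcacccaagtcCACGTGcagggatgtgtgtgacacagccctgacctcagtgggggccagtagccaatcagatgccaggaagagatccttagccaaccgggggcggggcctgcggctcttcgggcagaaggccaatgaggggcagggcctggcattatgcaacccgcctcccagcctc
The E-box is in 3 of the 14 member windows, of Per1, Fkbp5 and Sgk1, and in 6.02% of all windows. Among the other clock genes, 9 of 16 with a probe set were counted. In WT ALDO against WT control 6 of 9 were higher (median 0.14), against 51.9% of counted genes. Per3 (0.36) and the heme-sensing repressor Nr1d2 (0.31) were highest and Per2 (-0.23) lowest. In KO ALDO against KO control 3 of 9 were higher (median -0.12), against 52.3% of counted genes. The PAR-domain factor Hlf was lowest there (-0.46).

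Nedd4l, which tags ENaC for removal, had 1562 in WT and 1460 in KO under control treatment, and 1820 in WT and 1399 in KO under ALDO. It was the member with the smallest span over the 4 arrays (0.38), and KO ALDO was lowest. KO was below WT by -0.10 under control treatment and -0.38 under ALDO. ALDO gave 0.22 in WT and -0.06 in KO in this probe set, but 0.58 and 0.61 in the second, which had 495 and 465 (WT and KO) under control treatment and 750 and 719 under ALDO and placed both ALDO arrays above both control arrays. The other 4 probe sets were dimmer than the counted range, and 3 of these (123 to 222, 117 to 170 and 10.1 to 27.3) had ALDO differences above 0 in both genotypes, while the remaining one, at 17.7 to 43.9, had both below 0. The main and the second probe set thus gave opposite signs for ALDO in KO.

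**Figure D3:**
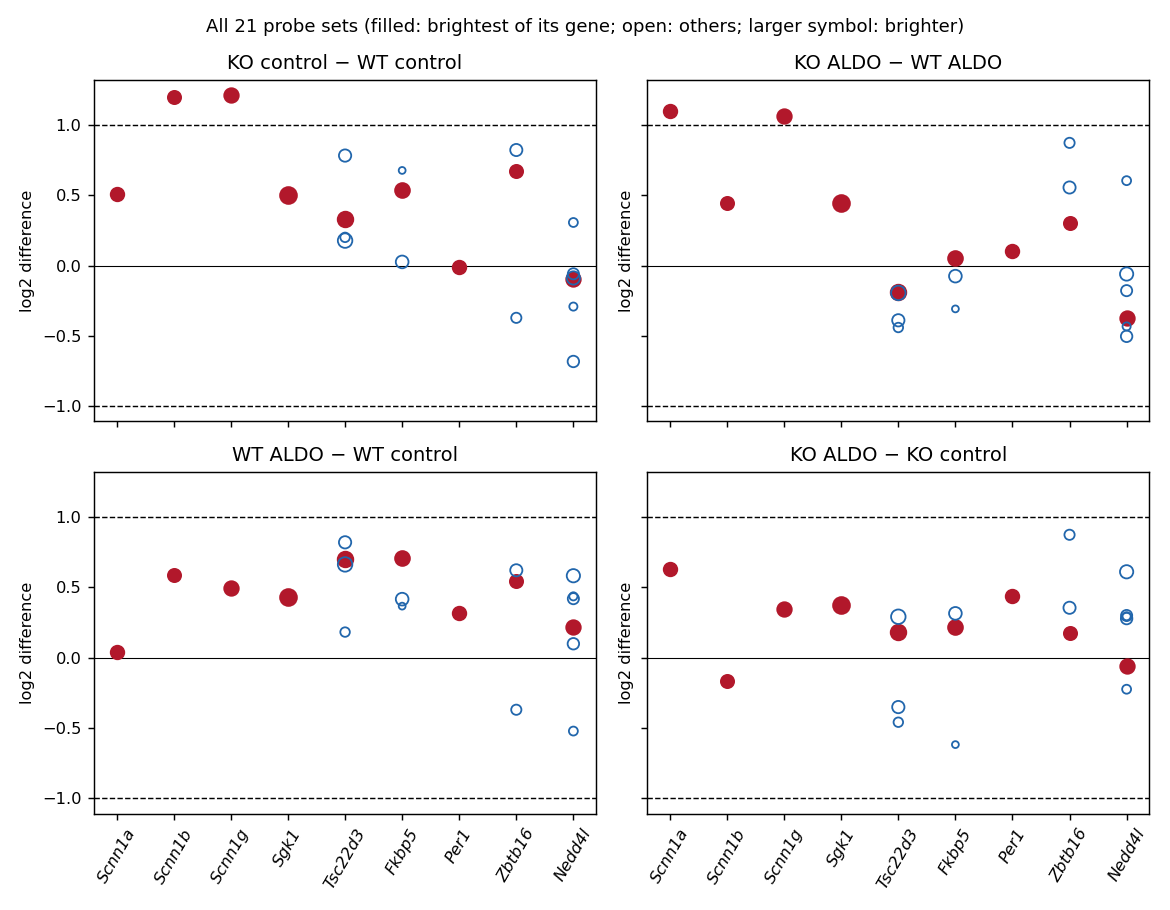
Log2 differences (vertical axis) of all 21 probe sets of the 9 genes (horizontal axis) in 4 pairs of arrays, filled for the brightest probe set of a gene and open for the others, with larger symbols for brighter probe sets and dashed lines at 2-fold. For WT ALDO against WT control 19 of 21 lie above 0, and for KO ALDO against KO control 15 of 21.

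For aldosterone and salt in WT, all 9 members were higher in ALDO than in control, from 0.04 for Scnn1a to 0.71 for Fkbp5, with a median of 0.50 against 0.00945 over the counted genes, of which 51.9% were above 0. None reached 2-fold, against 0.33% of counted genes. In KO, 7 of 9 were higher in ALDO, against 52.3% of counted genes. The member median was 0.22 against 0.0120 (0.36 with the next-brightest probe set and 0.35 with the mean of all). In KO none reached 2-fold, against 0.572% of counted genes. The highest was Scnn1a, at 0.63, and the lowest Scnn1b, at -0.16. The difference between the ALDO effects (KO minus WT) was above 0 for 50.6% of counted genes. It was below 0 for 7 of 9 members (median -0.28), from -0.75 for Scnn1b to 0.59 for Scnn1a. That median depends on the choice of probe set: it was -0.10 with the next-brightest one, and averaging every probe set of a gene gave -0.05, with Zbtb16 at 0.20. None was at 2-fold, against 0.594% of counted genes higher and 0.33% lower.

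WT control was the lowest array for 7 of 9 members (all but Per1 and Nedd4l) and for 28.6% of counted genes, and KO ALDO was the highest for 6 of 9 and for 33.5%. The genotype difference under control treatment and the ALDO difference in WT are both taken from that WT control array, so they are not separate observations. On 18 probe sets of spiked-in control RNA, the median difference was -0.04 for KO control against WT control, 0.08 for KO ALDO against WT ALDO, -0.27 for WT ALDO against WT control and -0.11 for KO ALDO against KO control. Centring each array on its median over all probe sets takes 0.11 from the genotype differences under control treatment and 0.14 from those under ALDO, which leaves Scnn1a at 0.96 and Scnn1g at 0.92 under ALDO.

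Markers of the cells that carry ENaC did not move as 1 group with the subunits. Of 16 principal cell and connecting tubule markers 14 were counted. Their median was 0.40 in KO control against WT control (9 of 14 above 0) and 0.06 in KO ALDO against WT ALDO (8 of 14). Of all counted genes, 49.7% and 51.3% were above 0 in these comparisons. The water channel Aqp3 had 3179 and 2353 (WT and KO) under control treatment and 4315 and 2251 under ALDO, and Fxyd4, a regulator of the sodium pump in principal cells, had 2556 and 1763, then 3446 and 1730. For both genes the KO arrays lay below the WT arrays, opposite to the subunits. The vasopressin-regulated water channel Aqp2 had 3407 and 3194, then 5412 and 3261, and only WT ALDO stood apart. In all, 8 of the 14 were higher in KO under both treatments, against 34.8% of counted genes, and 5 lower under both. The water channel Aqp4 was higher under control treatment (1.23) and lower under ALDO (-0.24). Aqp4 was at 189 in WT control, under the counted range, so the 1.23 is set against a dim value. The 8 included the keratin Krt18 (0.76 and 1.03), which parietal cells also express, the calcium-binding protein Calb1 of connecting tubule (0.55 and 0.39), the potassium channel Kcnj1 (0.40 and 0.35) and Hsd11b2 (0.58 and 0.06).

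Aldosterone and salt in WT went with higher principal cell markers, 13 of 14 above 0 with a median of 0.40, against 51.9% of counted genes above 0. The ENaC subunits were at 0.04 to 0.59 in that comparison. In KO the marker median was 0.08, and the subunits were at -0.16 to 0.63. The summed intensity of the 16 markers was 57438 in WT and 67724 in KO under control treatment, and 68661 and 71715 under ALDO, lowest in WT control. That sum is weighted to the 2 brightest, Calb1 (14473 in WT control, 23829 in KO ALDO) and Cdh16 (20851 and 20872). Among the counted markers, another array was lowest for Aqp2, Aqp3, Avpr2, Fxyd4, Apela and Cdh16, and WT control for the rest. None of these markers was listed at 0, and Elf5 was below the array median on all 4 arrays. Intercalated cell markers had medians of 0.57 and 0.40 for genotype (control, ALDO) and 0.84 and 0.33 for ALDO (WT, KO). Distal convoluted tubule markers had 0.54 and 0.37, and 0.45 and 0.20. The part of such markers in the ENaC values was not tested, and in RNA of a whole preparation fewer cells of a type and less RNA per cell cannot be told apart.

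**Figure D4:**
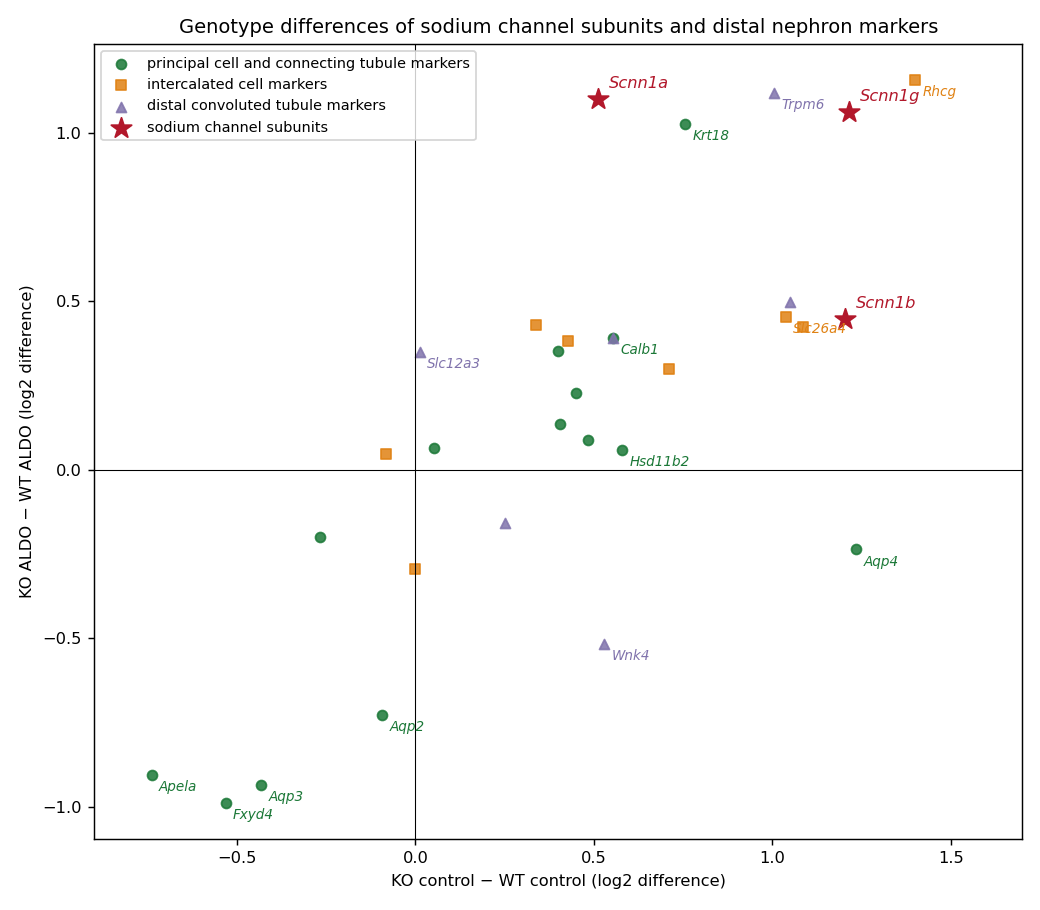
Log2 difference between KO and WT under control treatment (horizontal axis) and under ALDO (vertical axis) for the ENaC subunits (stars) and for counted markers of principal cells and connecting tubule (circles), intercalated cells (squares) and distal convoluted tubule (triangles); each point is 1 gene and the axes share no array. The subunits lie at the upper right together with markers such as Rhcg, Trpm6, Krt18, Slc8a1, Calb1 and Kcnj1, while Apela, Fxyd4, Aqp3, Aqp2 and Avpr2 lie at the lower left.

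Of the 26 listed genes for ENaC processing, surface turnover and upstream kinases, 23 had a probe set and 22 were counted. None of the 22 was at 2-fold or more in the 4 comparisons of arrays, and their medians were 0.03 and -0.09 for genotype (control, ALDO) and 0.09 and 0.01 for ALDO (WT, KO). St14, the membrane protease matriptase, was highest in both genotype comparisons, with 739 and 1449 (WT and KO) under control treatment, 994 and 1760 under ALDO, and differences of 0.96 and 0.81. Prss8, the channel-activating protease prostasin, went the other way, with 9551 and 7672, then 9163 and 6613, and differences of -0.32 and -0.47. The kinase Stk39 (SPAK) was highest for ALDO in WT (0.45) and also higher in KO (0.39). Wnk4, a kinase of distal sodium handling, had 2288 and 3309, then 2796 and 1950, so it was higher in KO under control treatment (0.53) and lower under ALDO (-0.52), and its ALDO effects differed by -1.04.

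Among corticosteroid receptors and steroid-inactivating enzymes, 9 of 12 listed genes had a probe set and 8 were counted. Hsd11b2, the enzyme that protects the mineralocorticoid receptor from glucocorticoids, had 2540 in WT control and 3775 to 3932 on the other 3 arrays. WT control alone was low, as for the main probe set of Fkbp5 but not its second. Hsd11b1, which regenerates active glucocorticoid, had 2031 and 1001 (WT and KO) under control treatment and 1764 and 1519 under ALDO, with KO control lowest and a difference of -1.01 between the genotypes under control treatment. The glucocorticoid receptor Nr3c1 had 1891 and 1941, then 2037 and 1526, lowest in KO ALDO. The mineralocorticoid receptor Nr3c2 was just below the counted range at 221 to 254, and is named for its role, after its values were seen.

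A further list of 24 corticosteroid-induced genes from outside the members had 22 counted. For ALDO 20 of 22 were above 0 in WT (median 0.32) and 17 of 22 in KO (median 0.24), against 51.9% and 52.3% of counted genes. The pyruvate dehydrogenase kinase Pdk4 was at 2-fold or more in WT (1.09), against 0.33% of counted genes. The lipocalin Lcn2 had 76.5 in WT control and 218 in WT ALDO, both dimmer than 247, the lowest intensity among counted genes by its mean over arrays, so it was counted only through its KO values and its difference of 1.34 in WT is uncertain. None was at 2-fold in KO, against 0.572% of counted genes, where the cell cycle inhibitor Cdkn1a (0.66) and the transcription factor Cebpb (0.62) were highest. Between genotypes the medians were 0.12 and 0.07, where the members had 0.51 and 0.30. In each genotype comparison 3 of 22 were at 2-fold or more higher in KO, against 0.967% of counted genes under control treatment and 1.26% under ALDO: Lcn2 and Cdkn1a in both, the sulfotransferase Sult1a1 (1.19) under control treatment and the transcription factor Cebpd (1.06) under ALDO. Lcn2 and Cebpd were under the counted range on both WT arrays and Cdkn1a, at 203, on the WT control array, so the sizes of their differences are set against dim values and a count of such genes is no support. Pdk4 was at 2-fold or more lower in KO under ALDO (-1.02), against 0.352% of counted genes. Cebpd is named after its values were seen.

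Of 16 genes for sodium and potassium transport along the nephron, 13 were counted, with medians from -0.02 to 0.00 in the 4 comparisons. Pendrin (Slc26a4), the chloride-bicarbonate exchanger of intercalated cells that works alongside ENaC in salt retention, had 856 and 1772 (WT and KO) under control treatment and 1540 and 2115 under ALDO, the same order of arrays as Scnn1g. The thiazide-sensitive cotransporter Slc12a3, a known aldosterone-responsive transporter, had 8323 and 8400, then 10274 and 13104, and was highest for ALDO in KO (0.64). Slc12a1, the thick limb cotransporter, was lower in KO (-0.60 and -0.74), and the proximal exchanger Slc9a3 was lower under ALDO (-0.46 and -0.58).

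For the members spanning 1 log2 unit or more over the 4 arrays, the 3 ENaC subunits, the counted genes of most like pattern were found by the root mean square difference of the 4 centred log2 values. Scnn1g was closest to Cyp2s1 (0.0640), the potassium channel Kcnq1 (0.0677) and the ammonia channel Rhcg (0.0753), an intercalated cell marker with 975 and 2599 (WT and KO) under control treatment and 1460 and 3273 under ALDO. Scnn1b was closest to Rtp4 (0.0512), L1cam (0.0633) and Ccdc102a (0.0662). Scnn1a was closest to Cd248 (0.0318), Clca3a1 (0.0462) and Cnn2 (0.0479). Ccdc102a was under the counted range in WT control (139) and WT ALDO (231), and Clca3a1 in WT control (234), so their patterns include dim values. No subunit was among the 3 nearest genes of another, and with 4 arrays many genes can share a pattern.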

How the data were processed

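Total RNA from glomeruli was labelled with a 3′ IVT kit per the labels' protocols, and the authors deposited probe set intensities on a linear scale, made with Affymetrix Expression Console per the submitters' processing notes. Its algorithm, version and detection calls are not stated. The mean intensity with 2% trimmed from each end was 500.003 for every array, so all had been scaled to 1 target before deposit, and a shift of all transcripts together could not be seen. Values were taken as log2(intensity + 16) in Python 3.11.15 with pandas 2.3.3. Probe sets were named from the platform annotation, where 34945 have 1 symbol, 932 several and 9211 none listed (64 are Affymetrix controls), and all 21 member probe sets matched a RefSeq gene by Entrez identifier. The probe set of highest mean stood for its gene. With 1 array per group there are no p-values, and the number of arrays limits the precision. The steps were tested on simulated data. Members, lists and the rule for named genes (members, up to 2 highest and 2 lowest counted genes of a list in a comparison, and 3 genes of like pattern for members spanning 1 or more) were chosen with earlier results of these data known. Some lists share genes. Members are not replicates. The 8 alternatives were pseudocounts of 1 and 64, quantile normalization, median centring, the mean of all probe sets, the next-brightest probe set, no low-signal filter and the brightest 25%. Promoter windows came from RefSeq (GRCm38.p6), with the 250 bases before each start searched on both strands; Scnn1a, Zbtb16 and Nedd4l had none used here.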

Additional observations from a re-analysis of the deposited data

Results flagged for a closer look

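For 4 members a difference had opposite signs in the 2 pairs of arrays that share no array; each pair holds 1 array per group, and the difference between pairs was not tested. Scnn1b was higher under ALDO in WT (0.59) and lower in KO (-0.16). Nedd4l was higher under ALDO in WT (0.22) and slightly lower in KO (-0.06) in its main probe set. Tsc22d3 was higher in KO under control treatment (0.33) and lower in KO under ALDO (-0.19). Per1 was close to equal between genotypes, at -0.013 under control treatment and 0.10 under ALDO.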

How the results depend on the processing

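Of the 8 alternatives, 6 can change a member's value, which gave 270 values over the 9 genes and 5 comparisons, and 260 kept the sign of the main value. None of the 132 whose main value was 0.4 or more in size changed sign. Part of this agreement was fixed in advance. A changed pseudocount cannot change the sign of a difference between a pair of arrays. For the 5 members with 1 probe set, the mean of all probe sets and the next-brightest one return the main value. With the mean of all probe sets, the difference between ALDO effects of Zbtb16 went from -0.37 to 0.20, and KO ALDO against KO control from 0.19 to -0.08 for Tsc22d3 and from 0.22 to -0.03 for Fkbp5. With the next-brightest probe set, Nedd4l went from -0.28 to 0.03 in the difference between ALDO effects and from -0.06 to 0.61 in KO ALDO against KO control, and Fkbp5 from 0.05 to -0.08 in KO ALDO against WT ALDO. The other sign changes had main values of 0.10 or less in size. With arrays centred on their medians, 0 members in place of 2 were at 2-fold or more in KO ALDO against WT ALDO, since the centring lowers every such difference by 0.14. Among the brightest 25% of genes, which hold 5 members, 1 was at 2-fold or more in KO control against WT control and 1 in KO ALDO against WT ALDO (2 each in the main setting), because Scnn1a and Scnn1b are not in that range. The member counts in the other comparisons were 0 under all 8 alternatives. No paired analysis was possible because the labels give no replicate numbers and each group has 1 array. Dim probe sets, such as the third of Fkbp5, limit what they show.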

Other observations

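Beyond the ENaC list, genes of other distal cell types were among those that differed between the arrays, each with 1 array per group and no test. Rhcg, the ammonia channel of intercalated and connecting tubule cells, was higher in KO by 1.40 under control treatment and 1.16 under ALDO. It was the highest of the 8 counted intercalated cell markers. Of the 8, 6 were higher in KO under control treatment and 7 under ALDO, against 49.7% and 51.3% of counted genes. Slc4a1 was lower in KO under ALDO (-0.30), and Atp6v1b1 under control treatment (-0.08). Aqp6, an intracellular channel of acid-secreting intercalated cells, was higher under ALDO by 0.94 in WT and 1.04 in KO. All 8 counted intercalated cell markers were higher under ALDO in both genotypes, against 33.2% of counted genes. Slc4a9 (236) and Foxi1 (246) were just under the counted range in WT control. Insrr, measured but not counted, was lower under ALDO in both (-0.26 in WT, -0.15 in KO). In the distal convoluted tubule list, the magnesium channel Trpm6 was higher in KO by 1.01 and 1.12 and the sodium-calcium exchanger Slc8a1 by 1.05 and 0.50 (control, ALDO). Of the 6 counted genes of that list, 6 were higher in KO under control treatment and 4 under ALDO, against the same 49.7% and 51.3%. Slc12a3 was at 0.01 under control treatment, and Wnk4 (-0.52) and Pvalb (-0.16) were lower in KO under ALDO.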
